A study of Mus musculus with 12 samples.

Results

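Podocyte genes are described here as 8 genes of the glomerular filter, Nphs1, Podxl, Ptpro, Clic5, Synpo, Plce1, Wt1 and Cdkn1c, of the 54532 genes listed in each of the 2 expression tables. A gene was included when its symbol in both tables was one of these 8, and all 8 were found in both tables. Kidney RNA was sequenced from 12 C57BL/6 mice in 4 groups of 3: β-catenin-/- mice after UUO, their wild-type controls after UUO, mice labelled CD44 knockout after UIRI, and their wild-type controls after UIRI. In UUO (unilateral ureteral obstruction) the ureter of a kidney is tied, and in UIRI (unilateral ischemia-reperfusion injury) the pedicle of a kidney is clipped and then released. Every kidney was therefore from an operated mouse, with no sham group among the libraries analysed here, and the labels give neither the age of the mice nor the time after surgery. The authors' methods give an age for purchased male C57BL/6 mice, and for UIRI a day of sacrifice after removal of the right kidney. They do not say whether these hold for the sequenced mice. The β-catenin-/- mice carried floxed β-catenin and Ksp-Cre, which is driven by the Cadherin-16 promoter in tubular epithelium and not in podocytes. The authors name as a limit that Ksp-Cre mice would have been better wild-type controls. The kind of CD44 deletion and its cell type were not given in the sources used here.

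Podocytes are the epithelial cells that wrap the glomerular capillaries with interdigitating foot processes, joined by the slit diaphragm through which plasma is filtered. Mature podocytes do not normally divide, and loss of their foot process structure, or of the cells themselves, leads to proteinuria. They are a small part of the cells of a kidney, so RNA from whole kidney holds their transcripts beside a large excess of tubular RNA. In such bulk RNA, fewer podocytes and less RNA per podocyte cannot be told apart.

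Depth and labels were examined first. Reads recovered from the FPKM values (fragments per kilobase of gene, corrected for sequencing depth) numbered 15940405 to 20737443 per library, and those of the 8 genes 105 (Plce1) to 4893 (Podxl) per gene and library. The β-catenin gene, Ctnnb1, was at 84.7, 71.4 and 71.7 FPKM in β-catenin-/- mice and 91.2, 86.7 and 98.5 FPKM in wild-type mice, lower in each knockout mouse without passing the test (log2 fold change −0.28, limma, adjusted p = 0.189). Cd44 was at 18.97, 11.97 and 13.86 FPKM in mice labelled CD44 knockout and 19.9, 16.3 and 17.8 FPKM in wild-type mice after UIRI (−0.27, limma, adjusted p = 0.339). The groups overlapped for Cd44, so its RNA did not separate the labels, and the mice are called by their label throughout. The counts of genes called over all genes turned on single kidneys. In UIRI they were 648 higher and 353 lower, against 1417 and 763 without replicate 2 of the mice labelled CD44 knockout, and 0 to 5 higher and 1 to 5 lower without any 1 of the other 5 kidneys. In UUO they were 1004 higher and 705 lower, against 1631 and 818 without β-catenin-/- replicate 3, 130 and 98 without wild-type replicate 2, and 285 to 520 higher and 274 to 530 lower without any 1 of the other 4.

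Nphs1 (nephrin, the adhesion protein of the slit diaphragm, chr7:30458315-30487223 of GRCm38) was detected in all 12 kidneys, as were the other 7 genes. Of the 8 genes, none was called different between knockout and wild-type mice in either model. In both models 7 of the 8 had a negative log2 fold change, and the exception was the same gene, Clic5. The values by kidney follow, ordered by the role of the protein, from the slit diaphragm and the foot process surface to the cytoskeleton and the nucleus.

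**Figure D1:**
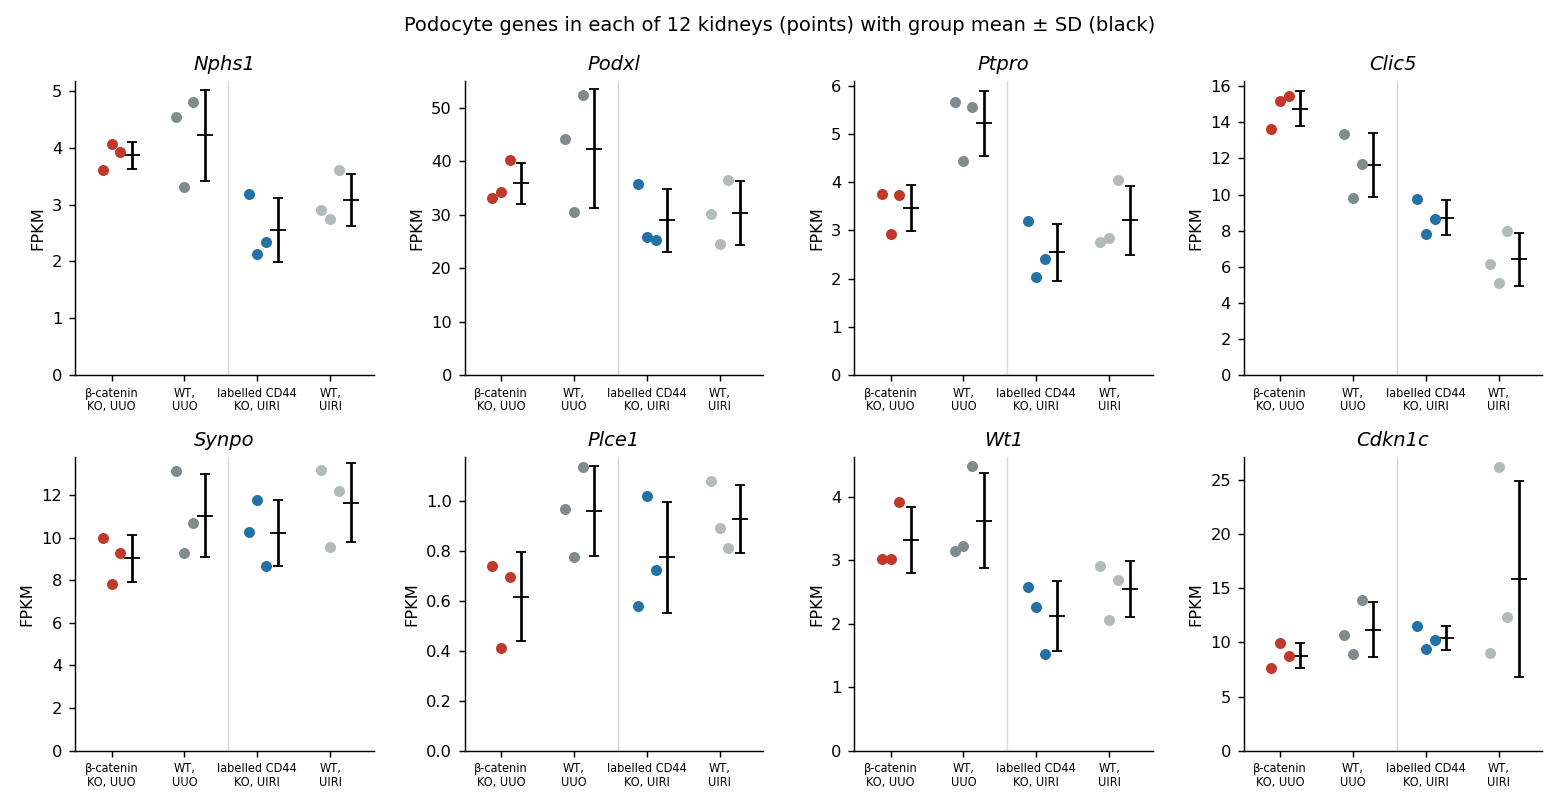
FPKM of the 8 podocyte genes (1 panel per gene, y axis from 0) in each of 12 kidneys (points) in 4 groups, with the group mean ± SD (black, n = 3). Ptpro and Plce1 lie lower in every β-catenin-/- mouse than in every wild-type mouse after UUO, Clic5 lies higher, and 1 wild-type mouse after UIRI stands far above the others for Cdkn1c at 26.2 FPKM.

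Nphs1 was at 3.61, 4.07 and 3.93 FPKM in β-catenin-/- mice and 4.55, 3.31 and 4.82 FPKM in wild-type mice after UUO. In the UIRI table it was at 3.19, 2.13 and 2.34 FPKM in mice labelled CD44 knockout and 2.91, 2.75 and 3.61 FPKM in wild-type mice. In both models the groups overlapped, and in UUO the knockout values lay inside the range of the wild-type values. The log2 fold change was −0.09 (95% interval −0.42 to 0.24) in β-catenin-/- mice and −0.21 (−0.55 to 0.13) in mice labelled CD44 knockout. The exons of Nphs1 share 9.02% of their bases with the antisense gene Nphs1os and 2.76% with a pseudogene, Rps12-ps4, and strand-specific counting is not stated, so a part of its reads could belong to these (means over 12 libraries of 0.0566 and 6.44 FPKM).

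Podxl (podocalyxin, chr6:31519488-31563981) is the sialoprotein whose negative charge keeps foot processes apart, and it is also made by endothelium. It was at 33.2, 34.2 and 40.3 FPKM in β-catenin-/- mice and 44.3, 30.4 and 52.5 FPKM in wild-type mice after UUO, and at 35.7, 25.9 and 25.3 FPKM in mice labelled CD44 knockout and 30.1, 24.5 and 36.4 FPKM in wild-type mice after UIRI. Wild-type mice after UUO held both the lowest and the highest value of their table, so the knockout values fell between them. The log2 fold changes were −0.21 (−0.68 to 0.27) and −0.07 (−0.50 to 0.37), and the small difference in UIRI turned positive without wild-type replicate 3 (0.07) and without replicate 2 (0.00456) or 3 (0.02) of the mice labelled CD44 knockout.

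Ptpro (chr6:137252319-137463233) encodes GLEPP1, a receptor tyrosine phosphatase of the apical foot process membrane, also present in some leukocytes. It was at 3.75, 2.92 and 3.73 FPKM in β-catenin-/- mice and 5.66, 4.43 and 5.56 FPKM in wild-type mice after UUO, so that each knockout mouse was below each wild-type mouse. Its means were 3.47 ± 0.477 FPKM in β-catenin-/- mice and 5.22 ± 0.683 FPKM in wild-type mice (SD, n = 3 each). The log2 fold change of −0.48 (standard error 0.14, 95% interval −0.79 to −0.16) had an unadjusted p of 0.00912 and an adjusted p of 0.0646 from limma, and so missed the threshold. With limma's voom on recovered reads it was called (−0.58, adjusted p = 0.0461), and over the alternatives run the adjusted p ranged from 0.0450 to 0.183. In the UIRI table Ptpro was at 3.19, 2.03 and 2.41 FPKM in mice labelled CD44 knockout and 2.75, 2.85 and 4.04 FPKM in wild-type mice, with overlap (−0.25, −0.65 to 0.15). The difference between the 2 effects was not called (−0.23, limma, adjusted p = 0.688), so Ptpro was not shown to respond in 1 model more than in the other.

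Clic5 (chr17:44188584-44280172) encodes a chloride intracellular channel protein bound to ezrin and podocalyxin at the apical foot process, and is also abundant in glomerular endothelium. It was at 13.6, 15.2 and 15.5 FPKM in β-catenin-/- mice and 13.4, 9.82 and 11.7 FPKM in wild-type mice after UUO. In the UIRI table it was at 9.75, 7.79 and 8.64 FPKM in mice labelled CD44 knockout and 6.14, 5.08 and 7.98 FPKM in wild-type mice. All 3 β-catenin-/- mice were above all 3 wild-type mice, the nearest by little, while in UIRI 1 pair of values crossed. The log2 fold change was 0.33 (standard error 0.13, 95% interval 0.02 to 0.64), with an unadjusted p of 0.0401 and an adjusted p of 0.147 from limma, in β-catenin-/- mice. In mice labelled CD44 knockout it was 0.41 (standard error 0.16, 95% interval 0.04 to 0.78), with an unadjusted p of 0.0362 and an adjusted p of 0.154 from limma. Neither passed the threshold over all genes. With FPKM rescaled to TPM the UUO value was 0.13, when the median of all genes moved to −0.16.

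Synpo (synaptopodin, an actin-organising protein of the foot process, also made in brain) was at 9.97, 7.81 and 9.30 FPKM in β-catenin-/- mice and 13.1, 9.27 and 10.7 FPKM in wild-type mice after UUO. After UIRI it was at 10.2, 11.7 and 8.65 FPKM in mice labelled CD44 knockout and 13.2, 9.57 and 12.2 FPKM in wild-type mice. The groups overlapped in both (−0.26, −0.61 to 0.10, and −0.17, −0.53 to 0.18). Plce1 (chr19:38481109-38785030), the phospholipase C epsilon whose loss causes nephrotic syndrome in humans, had the lowest level. It was at 0.741, 0.413 and 0.697 FPKM in β-catenin-/- mice and 0.97, 0.774 and 1.14 FPKM in wild-type mice after UUO, and at 0.581, 1.02 and 0.723 FPKM in mice labelled CD44 knockout and 1.08, 0.893 and 0.812 FPKM in wild-type mice after UIRI. Each β-catenin-/- mouse was below each wild-type mouse, with a log2 fold change of −0.28 (−0.65 to 0.09, limma, adjusted p = 0.278), while the UIRI groups overlapped (−0.13, −0.46 to 0.21). The pseudocount of 1 understates a change at such low levels, and to a lesser degree at the levels of Nphs1, Ptpro and Wt1. The ratio of the Plce1 means in UUO was 0.642, and its log2 fold change reached −0.65 over the alternatives run.

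Wt1 (chr2:105126529-105173616), the zinc-finger transcription factor that drives the podocyte programme, was at 3.02, 3.02 and 3.92 FPKM in β-catenin-/- mice and 3.15, 3.23 and 4.48 FPKM in wild-type mice after UUO. After UIRI it was at 2.58, 2.27 and 1.51 FPKM in mice labelled CD44 knockout and 2.91, 2.05 and 2.68 FPKM in wild-type mice. The groups overlapped in both models (−0.09, −0.45 to 0.27, and −0.19, −0.59 to 0.20). Without wild-type replicate 3 the UUO value changed sign, to 0.04.

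Cdkn1c (p57, chr7:143458339-143461050), the cyclin-dependent kinase inhibitor that marks the quiescent podocyte and is also made by other kidney cells, was at 7.67, 9.96 and 8.72 FPKM in β-catenin-/- mice and 10.7, 8.90 and 13.9 FPKM in wild-type mice after UUO. In the UIRI table it was at 11.6, 9.42 and 10.2 FPKM in mice labelled CD44 knockout and 9.05, 26.2 and 12.4 FPKM in wild-type mice. Wild-type replicate 2 after UIRI thus stood far above all other kidneys, and the log2 fold change of −0.44 (−1.25 to 0.37) rested on it, being −0.03 without it. The same kidney had the highest summed level of 5 collecting duct genes of its group, at 455 FPKM against 190 and 156 FPKM. Most of that sum was Aqp2, at 359 FPKM against 135 and 96.1 FPKM in the others. Aqp3 (38.7 FPKM against 20.5 and 19.5 FPKM) and Fxyd4 (39.2 FPKM against 20.1 and 19.4 FPKM) were also highest there. Scnn1g (17.3 FPKM against 13.7 and 20.6 FPKM) and Avpr2 (0.245 FPKM against 0.227 and 0.263 FPKM) were not. In β-catenin-/- replicate 1 that sum was still higher, at 556 FPKM, with Cdkn1c at 7.67 FPKM, and the part of collecting duct RNA in the Cdkn1c value was not tested. In UUO the log2 fold change was −0.30 (−0.71 to 0.10). Its exons share 30.7% of their bases with the antisense gene Gm44732, which was at 0.00758 FPKM on average.

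Across all genes tested, limma called 10.6% different in β-catenin-/- mice and 6.21% in mice labelled CD44 knockout, and of the 8 podocyte genes it called 0 in each. Both shares over all genes fell with most single kidneys left out. In UUO the calls fell to 130 higher and 98 lower without wild-type replicate 2. In UIRI they fell to 0 to 5 higher and 1 to 5 lower without any kidney but replicate 2 of the mice labelled CD44 knockout. At an unadjusted p under 0.05 there were 2 in UUO (Clic5 higher, Ptpro lower) and 1 in UIRI (Clic5 higher), where 29.9% and 27.1% of all genes reached that level. voom called 1 of the 8 (Ptpro) in UUO and 0 in UIRI, and with any 1 kidney left out, replicate 2 of the mice labelled CD44 knockout included, limma called 0 in each. Without overlap between groups there were 3 of 8 in UUO and 0 of 8 in UIRI, where 35.5% and 33.5% of all genes did not overlap. In UUO 19.6% of all genes were all above, as Clic5 was, and 15.9% all below, as Ptpro and Plce1 were. A 3-against-3 exact permutation test (two-sided) cannot go below p = 0.1, which Ptpro, Clic5 and Plce1 reached in UUO. The 8 genes had a median log2 fold change of −0.23 in β-catenin-/- mice, beside 0.01 over all genes, and −0.18 in mice labelled CD44 knockout, beside 0.00081 over all genes. On the TPM scale the medians became −0.40 beside −0.16 over all genes in UUO, and −0.29 beside −0.10 in UIRI. A negative sign was found in 7 of 8 genes in each model, and in 48.9% (UUO) and 49.8% (UIRI) of all genes. The 2 effects are side by side negative for 7 genes and positive for Clic5, and no difference between them was called (0 of 8, limma, adjusted p from 0.688 to 0.916, 0 at an unadjusted p under 0.05, 0 with voom), where 0.00618% of all genes were called. In reads simulated at these depths, limma called a 1.5-fold change in 3 of 70 genes for UUO and 2 of 73 for UIRI, and a 2-fold change in 40 of 59 and 31 of 62. voom called the 1.5-fold change in 16 of 70 and 9 of 73 and the 2-fold change in 54 of 59 and 55 of 62. Within the simulation both methods missed most 1.5-fold changes, and voom called 2-fold changes more often. The simulation gave every gene the same spread and changed fewer genes than were called in the data. Its shares are therefore not detection rates for these data.

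**Figure D2:**
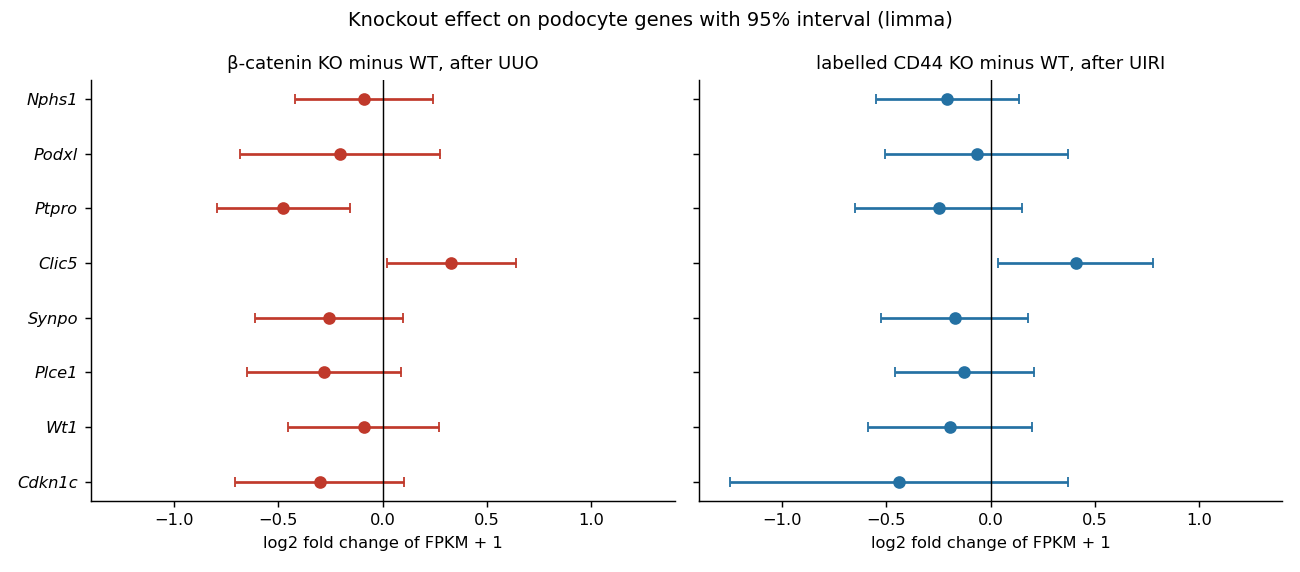
Log2 fold change of FPKM + 1 with its 95% interval (limma) for the 8 podocyte genes, in β-catenin-/- against wild-type mice after UUO (left) and in mice labelled CD44 knockout against wild-type mice after UIRI (right). Clic5 lies right of 0 in both (0.33 and 0.41) and the other 7 genes left of it, from −0.48 (Ptpro) to −0.09 in UUO and from −0.44 (Cdkn1c) to −0.07 in UIRI, and none passed the adjusted threshold.

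Clic5 was also set against Nphs1 as a ratio within the same kidney, which does not depend on how libraries are scaled. This ratio was chosen after the values were seen and is given with no test. After UUO the ratio was 3.78, 3.73 and 3.94 in β-catenin-/- mice, against 2.94, 2.97 and 2.42 in the wild type. After UIRI it was 3.05, 3.65 and 3.70 in mice labelled CD44 knockout, against 2.11, 1.85 and 2.21 in the wild type. The groups did not overlap in either model, and the same held for Clic5 over Podxl, with means of 0.413 in β-catenin-/- mice against 0.282 in the wild type, and of 0.305 in mice labelled CD44 knockout against 0.21 in the wild type. Clic5 is also made by glomerular endothelium. The endothelial genes listed below, not all particular to the glomerulus, summed lower in each knockout mouse than in each wild-type mouse in both models. The part of endothelial RNA in the Clic5 values was not tested. Ptpro over Nphs1 was 1.04, 0.716 and 0.951 in β-catenin-/- mice against 1.25, 1.34 and 1.15 in the wild type, with no overlap, while in UIRI it was 0.998, 0.951 and 1.03 in mice labelled CD44 knockout against 0.948, 1.03 and 1.12 in the wild type, with overlap. Wt1 over Nphs1 overlapped in both models.

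**Figure D3:**
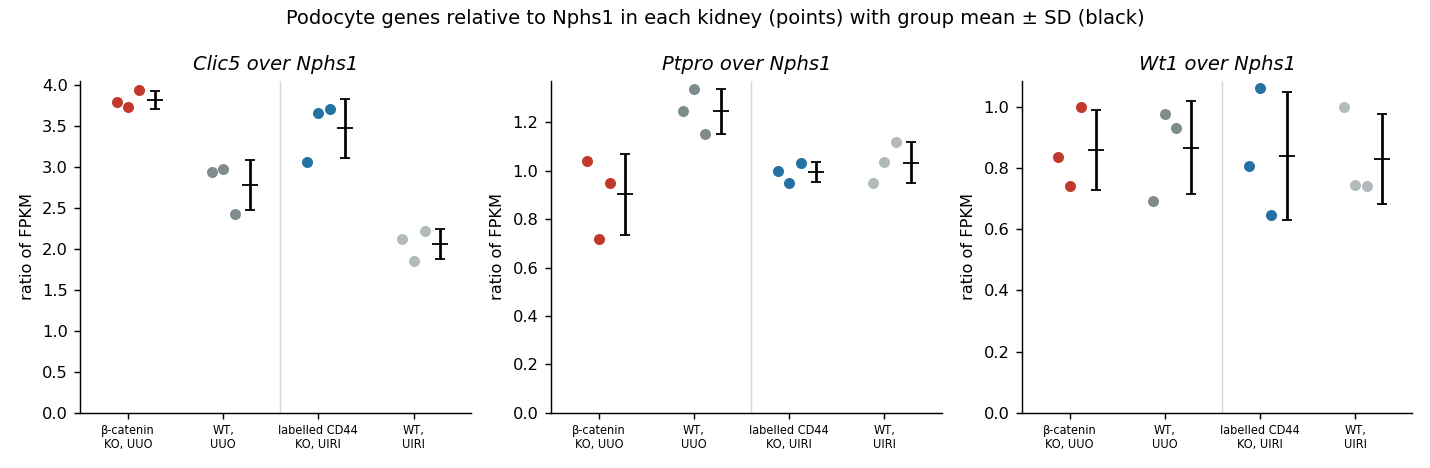
Ratio of FPKM of Clic5, Ptpro and Wt1 to Nphs1 in each kidney (points, y axis from 0), with the group mean ± SD (black, n = 3), knockout groups left of their wild-type group. The Clic5 ratio lies between 3.05 and 3.94 in the knockout groups and between 1.85 and 2.97 in the wild-type groups, the Ptpro ratio separates the groups in UUO, and the Wt1 ratio overlaps in both.

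The upstream sequences of the genes that departed from each other are shown here, in lower case, from RefSeq on GRCm38.p6, as the 250 bases before and the 50 bases after the transcription start. Of the 8 genes 4 had such a window (Nphs1, Ptpro, Clic5 and Plce1). Those of Nphs1 (from base 30459808) and Plce1 (from base 38523947) lay inside the gene spans given above, which begin at 30458315 and 38481109. For these 2 genes the bases before the start of the span were not searched. Capitals mark a match to any of 6 motifs searched on both strands, GCGTGGGAG and GCGGGGGCG (zinc-finger elements of the Wt1 and Egr1 type), TAATTA (homeodomain), CANNTG (E-box), TGCTGA and CTTTGAT (Tcf/Lef). Ptpro and Clic5 are shown because they had the most negative and the only positive value in UUO, and Nphs1 because they were set against it.
Nphs1, chr7:30459808-30460107, plus strand: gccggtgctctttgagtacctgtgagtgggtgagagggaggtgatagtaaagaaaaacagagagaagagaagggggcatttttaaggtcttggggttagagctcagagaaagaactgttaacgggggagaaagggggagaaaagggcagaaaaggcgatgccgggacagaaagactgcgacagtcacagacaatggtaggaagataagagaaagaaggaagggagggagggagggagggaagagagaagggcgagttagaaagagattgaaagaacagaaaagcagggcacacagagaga
Ptpro, chr6:137252049-137252348, plus strand: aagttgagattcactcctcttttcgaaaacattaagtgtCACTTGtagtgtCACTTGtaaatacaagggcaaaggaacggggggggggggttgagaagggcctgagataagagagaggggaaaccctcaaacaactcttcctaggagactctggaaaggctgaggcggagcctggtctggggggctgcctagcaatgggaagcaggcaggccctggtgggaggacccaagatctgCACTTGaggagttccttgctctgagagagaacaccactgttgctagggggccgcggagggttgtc
Clic5, chr17:44188322-44188621, plus strand: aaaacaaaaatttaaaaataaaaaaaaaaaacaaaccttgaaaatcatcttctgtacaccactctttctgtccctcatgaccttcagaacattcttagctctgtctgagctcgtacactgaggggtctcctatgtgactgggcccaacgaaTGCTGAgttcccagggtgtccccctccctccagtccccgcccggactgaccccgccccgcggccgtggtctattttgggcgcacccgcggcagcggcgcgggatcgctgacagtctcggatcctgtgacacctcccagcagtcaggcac
Ptpro held 3 E-boxes, a motif found in 72.3% of 32851 windows of this length, and Plce1 held 1. Clic5 held 1 TGCTGA motif (19.5% of windows) and no E-box. The window of Nphs1 held none of the 6 motifs, and none of the 4 windows held the Tcf/Lef motif (3.73% of all windows), the homeodomain motif (5.29%) or the zinc-finger motifs (0.472% and 2.91%). G and C made up 49.7% of the Nphs1 window, 54.7% of that of Ptpro and 54.3% of that of Clic5, beside a median of 52.7%.

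The order of the 8 genes by level was much the same in the 4 groups. Podxl had the highest mean in every group, its values all above those of the next gene except in wild-type mice after UIRI, where they overlapped those of Cdkn1c, with means of 35.9 ± 3.84 FPKM in β-catenin-/- mice, 42.4 ± 11.1 FPKM in wild-type mice after UUO, 28.96 ± 5.85 FPKM in mice labelled CD44 knockout and 30.4 ± 5.96 FPKM in wild-type mice after UIRI (SD, n = 3 each). Plce1 was the lowest in every group, below Wt1 in each kidney, from 0.617 ± 0.178 FPKM in β-catenin-/- mice to 0.96 ± 0.181 FPKM in wild-type mice after UUO (SD, n = 3 each). Nphs1, Ptpro and Wt1 formed a low cluster whose neighbours overlapped in each of the 4 groups. Synpo, Cdkn1c and Clic5 lay between, and Clic5 led these in both UUO groups (its values all above those of Synpo in β-catenin-/- mice, overlapping those of Cdkn1c in wild-type mice). Clic5 was the lowest of them in both UIRI groups, overlapping Synpo in mice labelled CD44 knockout and below it in wild-type mice.

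The 2 tables were scaled separately, so levels across them are a description with no test. Joint scaling of all 12 libraries moved the ratios of UUO to UIRI by at most 2.78%. In wild-type mice 3 genes were higher in every UUO kidney than in every UIRI kidney, Clic5 (ratio of means 1.82), Ptpro (1.62) and Wt1 (1.42), and none was lower in every kidney, where 22.7% and 26.1% of all genes were. Between the groups labelled knockout, Clic5 (1.69), Wt1 (1.57) and Nphs1 (1.51) were higher in every UUO kidney, where 14.6% of all genes were, with none of the 8 lower in every kidney (18.8% of all genes). Synpo (0.947 in wild-type mice, 0.884 in knockouts), Plce1 (1.03 and 0.796) and Cdkn1c (0.704 and 0.844) overlapped in both. The wild-type Cdkn1c ratio includes wild-type replicate 2 after UIRI, at 26.2 FPKM against 9.05 and 12.4 FPKM. Whether the ratios differ between the 8 genes was not tested. Which surgery, batch or mouse stock these ratios reflect cannot be told apart.

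The genes also varied among mice of the same group. As a description over 12 kidneys (values on the log2 scale, centred on the mean of their table, so that the table difference is removed but the genotype is not), Podxl went with the mean of the other 7 genes at a Pearson r of 0.889, Nphs1 at 0.785, Ptpro at 0.756, Wt1 at 0.633 and Synpo at 0.584. Plce1 (0.346) and Cdkn1c (0.0881) did so in UUO (0.764 and 0.728 over 6 kidneys) and not in UIRI (−0.255 and −0.276), and Clic5 in neither (−0.232 and −0.222). Wild-type replicate 3 had the highest Podxl and Nphs1 of its table in both models. The points of such a correlation share the depth and RNA composition of a library. Of 12366 protein-coding genes whose mean was 1 FPKM or more, the 10 most like the mean of the 8 were Ddx6 (r = 0.926), Alpk1 (0.897), Slc23a2 (0.887), Sbno1 (0.887), Abcc5 (0.878), Atf7 (0.877), Flt1 (0.876), Ntng2 (0.873), Zfp26 (0.868) and Cramp1l (0.868). Flt1, a VEGF receptor, is in the list of endothelial genes given below. The others of that list ranged from Cdh5, 67th (0.797), to Egfl7, 5761st (−0.0171). Robo2, a receptor linked to the slit diaphragm, was 37th (0.83), below the 10 named.

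**Figure D4:**
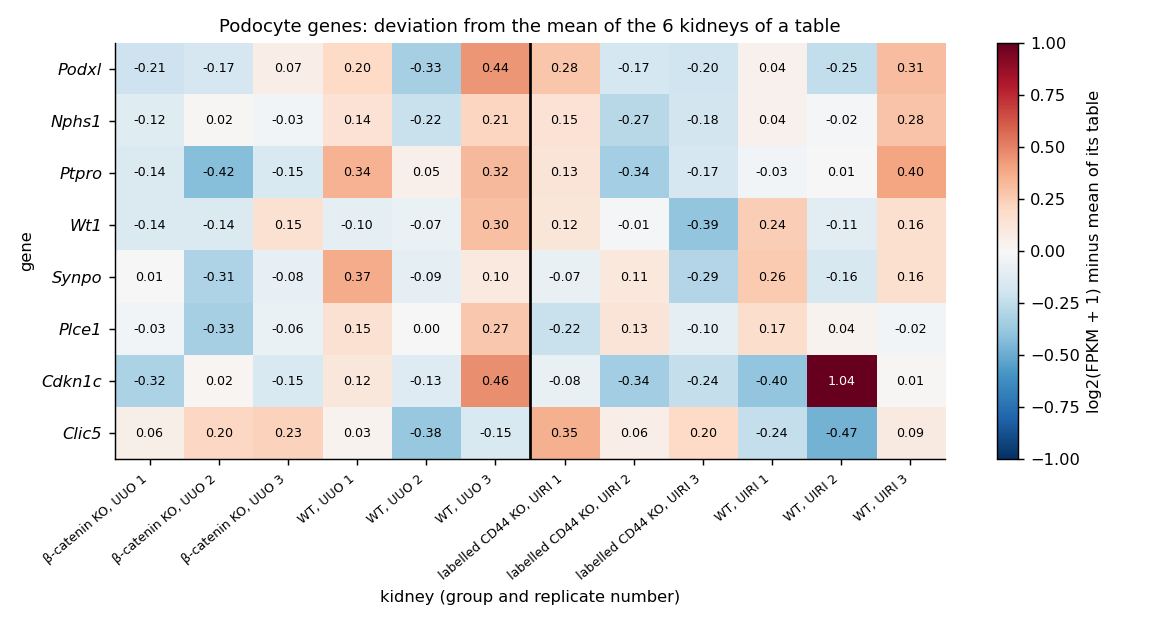
Log2(FPKM + 1) of the 8 podocyte genes (rows, Clic5 last) in 12 kidneys (columns, β-catenin-/- and its wild type left of the black line, labelled CD44 knockout and its wild type right), minus the mean of the 6 kidneys of the table (colour and printed value). Podxl, Nphs1 and Ptpro are all positive in wild-type replicate 3 of each table, Clic5 is positive in all 6 knockout kidneys, and Cdkn1c is 1.04 in wild-type replicate 2 after UIRI.

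Of 31 other podocyte genes, 28 were tested in UUO and 27 in UIRI. In β-catenin-/- mice 0 were higher, 3 were lower (Inf2, Pdpn and Kirrel) and 25 did not pass, with a median log2 fold change of −0.06, where 6.21% of all genes were called higher and 4.36% lower. With no adjustment (p under 0.05) the counts were 2 higher and 6 lower, where 29.9% of all genes reached that level, and voom called 0 higher and 4 lower (the same 3 and Robo2). Inf2, a formin whose human mutations cause focal segmental glomerulosclerosis, fell to 5.07, 4.71 and 5.46 FPKM in β-catenin-/- mice, against 8.69, 7.86 and 9.61 FPKM in wild-type mice (−0.67, limma, adjusted p = 0.0171). Pdpn, podoplanin, which is also found on lymphatic endothelium and fibroblasts, fell to 12.1, 10.3 and 15.9 FPKM, against 25.7, 23.2 and 25.6 FPKM in wild-type mice (−0.93, limma, adjusted p = 0.0181). Kirrel, which encodes NEPH1, the partner of nephrin, fell to 4.61, 3.13 and 4.25 FPKM, against 8.71, 6.88 and 6.70 FPKM in wild-type mice (−0.76, limma, adjusted p = 0.0278). The groups did not overlap for these 3 genes. Each call was lost without β-catenin-/- replicate 1 (adjusted p = 0.0523 for Inf2, 0.0569 for Pdpn and 0.0521 for Kirrel), without wild-type replicate 1 (0.0535, 0.057 and 0.0794) and without wild-type replicate 2 (0.053, 0.0657 and 0.0816), all from limma. Without β-catenin-/- replicate 2 those of Inf2 (0.0577) and Kirrel (0.0715) were lost too, and with no filter on low values those of Pdpn (0.0509) and Kirrel (0.0745). Robo2 (−0.60, limma, adjusted p = 0.0725) was called only by voom among the alternatives (−1.09, adjusted p = 0.0274). Sema3g (0.44, limma, adjusted p = 0.0899) was called only with the replicate number as a block (0.44, adjusted p = 0.0487).

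In mice labelled CD44 knockout 1 of the 27 was higher (Arhgap24), 0 were lower and 26 did not pass, with a median of 0.04, where 4.02% of all genes were called higher and 2.19% lower. With no adjustment (p under 0.05) the counts were 4 higher and 2 lower, where 27.1% of all genes reached that level, and voom called 1 higher (Arhgap24) and 1 lower (Tcf21). Arhgap24, a Rac-inactivating protein of the podocyte cytoskeleton, was at 20.0, 21.8 and 20.2 FPKM in mice labelled CD44 knockout and 13.0, 13.5 and 12.9 FPKM in wild-type mice (0.62, limma, adjusted p = 0.0267), and at 18.9, 17.0 and 18.1 FPKM in β-catenin-/- mice and 17.2, 12.7 and 10.8 FPKM in wild-type mice after UUO, where the groups overlapped (0.41, adjusted p = 0.152). This call was kept without replicate 2 of the mice labelled CD44 knockout (adjusted p = 0.0092) and was lost when any other kidney was left out (0.064 to 0.108, limma). Without that replicate 5 of the list were called, among them Arhgap24, which was higher, and Pdpn, Inf2 and Lamb2, which were lower. That mouse had Pdpn at 31.8 FPKM, where the other two labelled CD44 knockout had 15.7 and 14.5 FPKM and wild-type mice had 41.3, 27.2 and 38.1 FPKM. Tcf21, a transcription factor of podocytes and stroma, was at 14.4, 18.9 and 22.9 FPKM in mice labelled CD44 knockout and 28.98, 32.5 and 26.5 FPKM in wild-type mice, with no overlap (−0.64, adjusted p = 0.0696).

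Other cell type genes moved with these comparisons. The counts below stand beside shares over all genes. In UUO limma called 6.21% higher and 4.36% lower, and in UIRI 4.02% higher and 2.19% lower. An unadjusted p under 0.05 was reached by 29.9% of all genes in UUO and 27.1% in UIRI. In UIRI voom called 1044 higher and 667 lower of 16113 genes. The list of glomerular endothelial genes holds general endothelial genes such as Pecam1, Cdh5 and Eng, so its sum is not particular to the glomerulus. Summed, these genes (10 listed, including Eng, Plat and Egfl7) were 115 to 134 FPKM in β-catenin-/- mice and 170 to 192 FPKM in wild-type mice, with 2 of 10 called lower and a median log2 fold change of −0.43. They were 83.8 to 103 FPKM in mice labelled CD44 knockout and 109 to 111 FPKM in wild-type mice, with 0 of 10 called (limma; 2 lower at an unadjusted p under 0.05, and 1 lower with voom) and a median of −0.20. In UIRI 1 of the 10 had a positive log2 fold change. Summed mesangial genes (7 listed) were 35.1 to 51.8 FPKM in β-catenin-/- mice and 60.4 to 84.6 FPKM in wild-type mice (2 called lower, median −0.48), and 40.2 to 59.0 FPKM in mice labelled CD44 knockout and 61.7 to 70.2 FPKM in wild-type mice (0 of 6 called by limma, 2 at an unadjusted p under 0.05, 2 with voom, median −0.17). In UUO 2 of the 7 had a positive log2 fold change, among them Cspg4 (0.38, limma, adjusted p = 0.13). The 8 podocyte genes summed to 75.6 to 86.1 FPKM in β-catenin-/- mice and 70.2 to 105 FPKM in wild-type mice after UUO, and to 59.8 to 76.8 FPKM in mice labelled CD44 knockout and 68.2 to 80.1 FPKM in wild-type mice after UIRI, overlapping in both models. Proximal tubule genes had 5 of 8 called higher in each model, with medians of 1.10 and 1.16, and summed to 578 to 1093 FPKM in β-catenin-/- mice and 277 to 298 FPKM in wild-type mice. In the UIRI table they summed to 515 to 1098 FPKM in mice labelled CD44 knockout and 239 to 327 FPKM in wild-type mice. Macrophage genes had 4 of 5 called lower in UUO and 3 of 5 in UIRI, with sums of 275 to 354 FPKM in β-catenin-/- mice and 495 to 703 FPKM in wild-type mice, and 387 to 555 FPKM in mice labelled CD44 knockout and 884 to 924 FPKM in wild-type mice. Myofibroblast genes (5 listed) had 2 called lower in UUO, Tnc (−1.86, limma, adjusted p = 0.00613) and Col3a1 (means of 21.1 FPKM in β-catenin-/- mice and 53.7 FPKM in wild-type mice, adjusted p = 0.0278), with a median of −1.11. In UIRI 0 of 5 were called by limma (2 lower at an unadjusted p under 0.05, 1 lower with voom), with a median of −0.66. Their sums overlapped in both models, at 39.9 to 161 FPKM in β-catenin-/- mice and 144 to 169 FPKM in wild-type mice, and at 89.96 to 245 FPKM in mice labelled CD44 knockout and 184 to 336 FPKM in wild-type mice. No gene of these 5 lists was at 0 in any library, and the part of these shifts in the podocyte values was not tested.

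**Figure D5:**
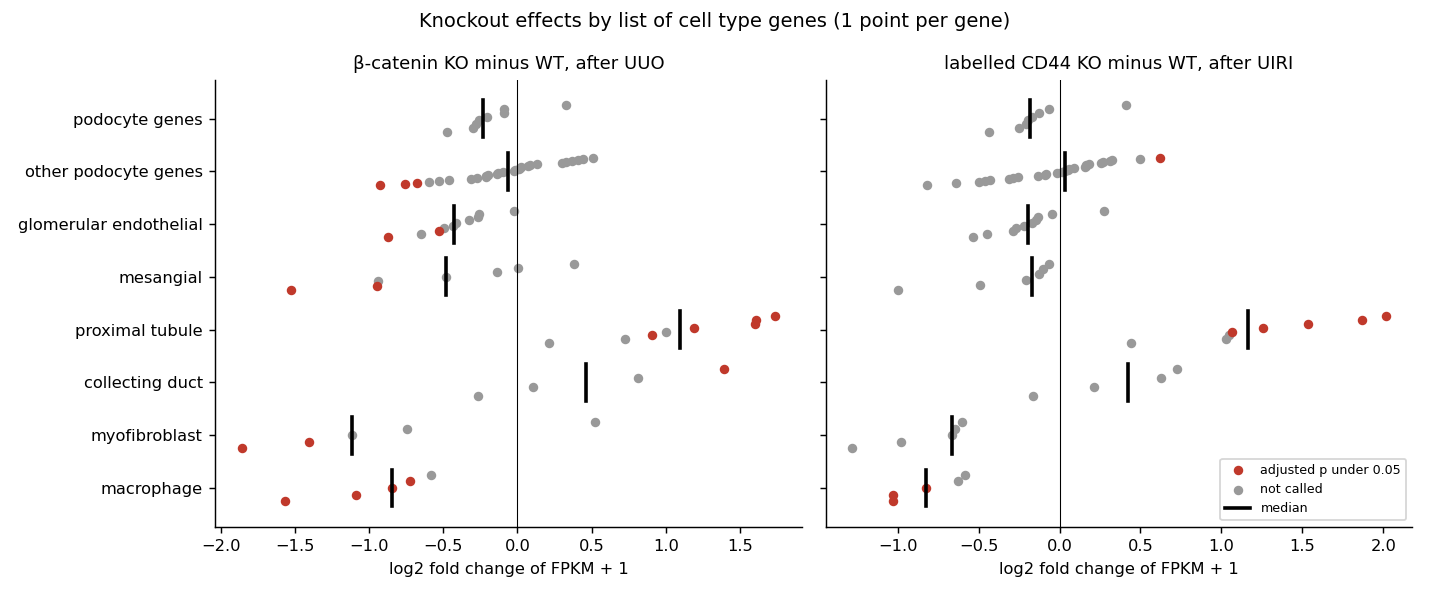
Log2 fold change of FPKM + 1 for each tested gene (points, red where the limma adjusted p is under 0.05) of 8 lists of cell type genes, with the list's median (black bar), for β-catenin-/- against wild-type mice after UUO (left) and mice labelled CD44 knockout against wild-type mice after UIRI (right). The medians of the 8 podocyte genes lie at −0.23 and −0.18 with no red point, those of proximal tubule genes at 1.10 and 1.16 and those of macrophage genes at −0.85 and −0.82.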

How the data were processed

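Per the labels and methods, the authors aligned total kidney RNA reads with HISAT2 2.0.5 to GRCm38, obtained gene counts with featureCounts 1.5.0-p3, compared groups with DESeq2 1.20.0 and deposited FPKM. The depth term of the deposited FPKM followed median-of-ratios size factors of each table. FPKM times gene length, divided by the value of 1 read in that library, gave whole reads for 100% of values above 0 (within 0.01 read). The knockout in a table decided whether its wild-type columns were taken as UUO or UIRI. In R 4.3.3, limma 3.58.1 (lmFit, eBayes with trend) was run on log2(FPKM + 1), a pseudocount of 1, for genes whose mean reached 0.5 FPKM, two-sided, with Benjamini-Hochberg adjustment at 0.05 over all genes tested. Fold changes are knockout over wild type. As the labels name no separate litters or batches, p-values measure the spread between these mice only. Alternatives were a pseudocount of 0.1, no filter, a filter at 1 FPKM, TPM, no trend, voom on recovered reads, a replicate block and each library left out. The method was tested on simulated reads. Named were the 8 genes, of the other podocyte genes those called and the 6 with the smallest p in each table, of each marker list the 3 most abundant, the 10 genes of highest likeness and the targeted genes. The genes that each setting called were named as well, after their values were seen. Not all of those named by the rule are reported here. The members and lists were chosen with earlier results of these data known. Figures used Matplotlib 3.10.9 in Python 3.11.15.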

Additional observations from a re-analysis of the deposited data

How the results depend on the processing

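No alternative called a podocyte gene in UIRI. In UUO, voom on recovered reads called 1 of 8 (Ptpro), and so did the replicate number as a block (1, Ptpro, adjusted p = 0.0450 from limma), against 0 in the fit reported, and leaving out each kidney gave 0 to 0 in each model and for the difference between the effects. Same-numbered kidneys did not vary together in every pair (correlations of 0.0802, 0.198 and 0.0434 in UUO, −0.143, −0.0251 and −0.0291 in UIRI), and not every kidney went best with its own number, so the numbers were not taken as pairs. Of the other podocyte genes, 3 were called in UUO, against 1 without a filter and 0 to 4 with each kidney left out, and 1 in UIRI, against 2 with voom, 0 with the block and 0 to 5 with each kidney left out. The cause was not tested. Across 24 log2 fold changes of the 8 genes (2 effects and their difference), 338 values under other settings kept their direction and side of the threshold, 2 (Ptpro in UUO) became called and 17 changed sign, each of these with 1 kidney left out. Those ranges were −0.221 to 0.0705 for Podxl in UIRI and −0.189 to 0.0376 for Wt1 in UUO. For the difference between effects they were −0.0157 to 0.242 for Nphs1, −0.355 to 0.0283 for Podxl, −0.227 to 0.0537 for Clic5, −0.192 to 0.0395 for Synpo, −0.0468 to 0.231 for Wt1 and −0.274 to 0.444 for Cdkn1c. Plce1 was not tested under the filter at 1 FPKM. Over all genes, the UUO calls went from 1004 higher and 705 lower to 564 and 1160 with TPM, and the UIRI calls from 648 and 353 to 216 and 471, while the median of all genes moved to −0.16 and −0.10. Without a filter they were 280 and 193 in UUO and 43 and 20 in UIRI, and the block left 0 calls in UIRI. Depth limited Plce1 most, at 105 to 309 reads per kidney.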

Other observations

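Of the 2 juxtaglomerular genes listed, Ren1 and Akr1b7, both were higher in every wild-type kidney after UUO than in every wild-type kidney after UIRI. The same held between the groups labelled knockout. Of all genes, 22.7% (wild type) and 14.6% (knockout) did so. Across genotypes Akr1b7 crossed, at 1.59 FPKM in β-catenin-/- replicate 1 and 1.81 FPKM in wild-type replicate 3 after UIRI. This is a description across separately scaled tables in which surgery, batch and mouse stock cannot be told apart. Ren1, renin, was at 70.5, 138 and 106 FPKM in β-catenin-/- mice and 62.6, 57.4 and 99.2 FPKM in wild-type mice after UUO, and at 21.6, 14.9 and 16.7 FPKM in mice labelled CD44 knockout and 23.9, 14.0 and 21.3 FPKM in wild-type mice after UIRI. The ratios of UUO to UIRI means were 5.92 between the knockouts and 3.71 between the wild-type groups for Ren1, and 2.34 and 2.28 for Akr1b7, beside 1.69 and 1.82 for Clic5. Within each table the knockout and wild-type values of Ren1 overlapped, with log2 fold changes of 0.50 (−0.18 to 1.19) in UUO and −0.13 (−0.65 to 0.39) in UIRI, neither called by limma (adjusted p = 0.293 and 0.742).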
